A study of Mus musculus with 6 samples.

Results

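The 10 genes followed here were chosen as Leydig cell markers outside the steroid pathway, and they were compared between testes of H3t deletion mice and of wild-type (WT) mice. They are Insl3, Lhcgr, Prlr, Ghr, Vcam1, Hao2, Vnn1, Fabp3, Gramd1b and Smpdl3a, and each was taken from the count table by its symbol, giving 10 of 54100 genes. The data went against the name for Ghr, Gramd1b and Smpdl3a, which did not rise with the steroid synthesis genes of Leydig cells to a like extent. RNA came from cryosections of testis, with 3 H3t deletion libraries and 3 WT libraries. H3t is a testis histone H3 variant whose loss disrupts spermatogenesis, and the series concerns Leydig cells in such testes. The sources used here give no age or strain for the mice of either group and do not say how many sections entered a library.

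Leydig cells lie between the seminiferous tubules and make testosterone when luteinizing hormone (LH) from the pituitary binds its receptor. They also secrete INSL3, a relaxin-like peptide hormone that acts on the receptor RXFP2 and drives the first phase of testis descent in the fetus. Prolactin and growth hormone act on Leydig cells through cytokine-type receptors that signal by JAK2 and STAT5. VCAM1 and several enzymes of lipid and cofactor metabolism are further markers of the adult cell.

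Total counts were 8315960 to 8988520 in the deletion libraries and 8037826 to 10702930 in the WT libraries. The targeted gene, listed as H3f4, had 0 counts in each deletion library and 390, 571 and 356 counts in WT replicates 1, 2 and 3. Mitochondrial genes took 21.6% to 22.7% of the counts in the deletion and 5.59% to 6.44% in WT. Values are given as CPM (counts scaled to a common library size) after scaling by TMM, edgeR's trimmed mean of M-values. A gene was called higher or lower when edgeR's quasi-likelihood test gave a Benjamini-Hochberg adjusted p under 0.05 over the 17038 genes tested. By that rule 38.4% of all tested genes were higher and 46.1% lower in the deletion, with a median log2 fold change of -0.19. The balance rested on the scaling: upper-quartile scaling gave 8111 genes higher and 6609 lower, and no scaling factor 8378 and 6425, against 6542 and 7861 with TMM, and the median moved to 0.35 and 0.45. The Leydig cells themselves were represented in both groups, since the 6 core steroid synthesis genes Star, Cyp11a1, Hsd3b1, Hsd3b6, Cyp17a1 and Hsd17b3 summed to 3560 to 3800 CPM in deletion testes, against 382 to 443 CPM in WT. CPM is a share of each library's counts. In such bulk tissue, more cells of a type, more RNA per cell and a larger share as RNA of other cells falls cannot be told apart.

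All 10 members passed the filter on low counts, and with TMM scaling 9 were called higher and 1, Smpdl3a, lower in the deletion. Their median log2 fold change was 2.80. Of these, Insl3, Lhcgr, Prlr, Vcam1, Hao2, Vnn1 and Fabp3 rose by 6.56-fold to 13.7-fold. Ghr and Gramd1b rose by 1.59-fold and 1.33-fold. In every member the 3 deletion libraries lay wholly above, or for Smpdl3a wholly below, the 3 WT libraries on this scale, as the deletion did in 39.2% of all tested genes above WT and 46.7% below, so the lack of overlap is not particular to the members.

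**Figure D1:**
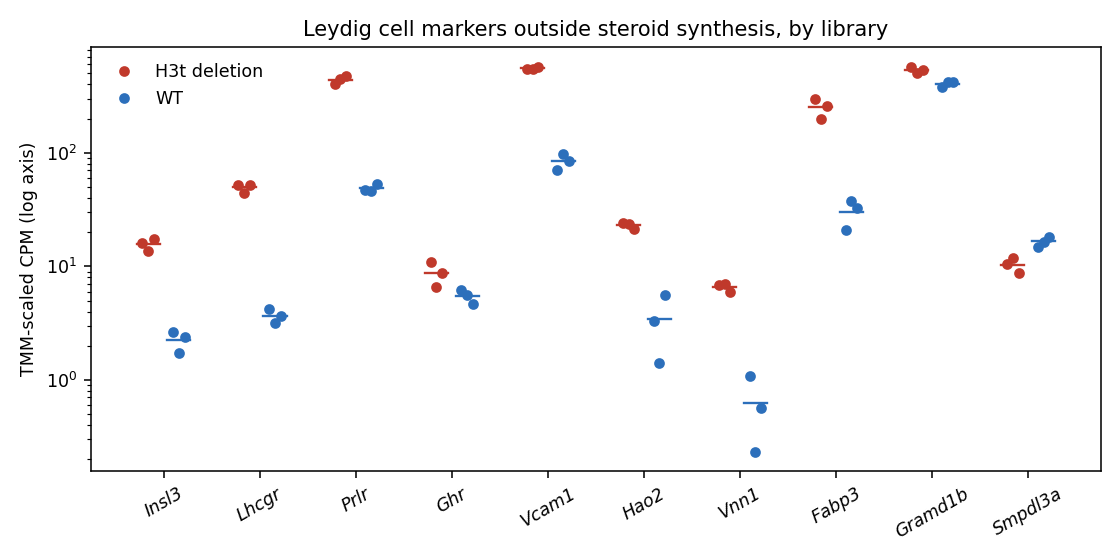
TMM-scaled CPM of the 10 members on a log axis, with a point per library and a bar at the mean of each group of 3 libraries. The 2 groups do not overlap in any member, as in most tested genes (39.2% above and 46.7% below WT), with Smpdl3a the only member whose deletion libraries, at 8.77 to 11.8 CPM, lie below WT, at 14.9 to 18.3 CPM.

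The hormone itself was counted at a low level in WT. Insl3 (chromosome 8, 71689214 to 71690575, plus strand, GRCm38) had 176, 151 and 182 counts in deletion replicates 1, 2 and 3 and 17, 15 and 17 counts in WT replicates 1, 2 and 3. These are 16.2, 13.7 and 17.3 CPM in deletion testes, against 2.65, 1.74 and 2.40 CPM in WT, so the lowest deletion library stood well above the highest WT library. The log2 fold change was 2.81 with a standard error (SE) of 0.26 (edgeR adjusted p = 8.05e-08). Insl3 lies within Jak3, and 64.8% of its exon bases are also exon of Jak3 on the same strand, so reads there cannot be assigned to either gene with certainty. Jak3, a kinase of immune cells, had 172, 118 and 110 counts in the deletion and 46, 81 and 48 counts in WT, and its log2 fold change was 0.66 with an SE of 0.24 (edgeR adjusted p = 0.0209).

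Lhcgr, the receptor for LH (chromosome 17, 88716481 to 88791990, minus strand), had the highest fold change of the 10 members with all 6 libraries, although that of Vnn1 passed it without WT replicate 1. It had 52.4, 44.6 and 52.4 CPM in deletion replicates 1, 2 and 3 and 4.2, 3.14 and 3.67 CPM in WT replicates 1, 2 and 3. WT values rested on 27, 27 and 26 counts. The log2 fold change was 3.77 with an SE of 0.18 (edgeR adjusted p = 2.06e-11), and it lay between 3.65 and 3.86 when any single library was left out.

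The sequences just upstream of the hormone gene and of the LH receptor gene are shown because both genes rose together. Each window runs from 250 bases before to 50 bases after the RefSeq gene start in GRCm38.p6, read 5′ to 3′ on the strand of the gene. Capitals mark AGGTCA, the core element of many nuclear receptors, searched on both strands.
Insl3, chr8:71689002-71689301, plus strand: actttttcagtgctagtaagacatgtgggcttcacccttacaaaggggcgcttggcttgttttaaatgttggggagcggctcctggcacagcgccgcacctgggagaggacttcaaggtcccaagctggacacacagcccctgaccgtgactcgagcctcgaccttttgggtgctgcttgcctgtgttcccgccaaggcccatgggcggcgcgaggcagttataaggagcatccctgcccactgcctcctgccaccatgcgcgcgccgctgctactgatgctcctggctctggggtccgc
Lhcgr, chr17:88791965-88792264, minus strand: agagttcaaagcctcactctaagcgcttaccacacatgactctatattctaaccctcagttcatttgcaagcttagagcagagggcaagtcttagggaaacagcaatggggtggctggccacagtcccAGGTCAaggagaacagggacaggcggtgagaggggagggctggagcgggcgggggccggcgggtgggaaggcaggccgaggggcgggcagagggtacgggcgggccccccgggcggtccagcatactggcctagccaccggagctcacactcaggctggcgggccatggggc

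The Lhcgr window held AGGTCA with its first base at position -122 from the gene start, and 16.3% of 32851 windows of the same length in the RefSeq table held it on either strand. The longer forms CAAGGTCA, bound by NR5A1, and AAAGGTCA, bound by NR4A1, both contain AGGTCA. They stood in 1.56% and 1.51% of all windows and in 0 of the 9 windows available for 6 members (Insl3, Lhcgr, Prlr, Ghr, Hao2 and Fabp3). A match or its absence describes only these letters in these windows.

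The cytokine-type receptors differed from each other in how far they rose. Prlr, the prolactin receptor (chromosome 15, 10177238 to 10349180), had 407, 447 and 470 CPM in the deletion libraries and 47.3, 46.0 and 52.9 CPM in the WT libraries. Its log2 fold change was 3.18 with an SE of 0.10 (edgeR adjusted p = 1.15e-13), with little spread in either group. Ghr, the growth hormone receptor (chromosome 15, 3317760 to 3583492), had 10.9, 6.60 and 8.77 CPM in the deletion libraries and 6.23, 5.58 and 4.65 CPM in the WT libraries. The lowest deletion library thus lay close to the highest WT library. Its log2 fold change of 0.67, with an SE of 0.28, passed narrowly (edgeR adjusted p = 0.0332). The call of Ghr ended without deletion replicate 1 (0.50, edgeR adjusted p = 0.148), deletion replicate 3 (0.67, 0.0585), WT replicate 2 (0.67, 0.0668) or WT replicate 3 (0.53, 0.116). Within libraries, the log2 ratio of Prlr to Ghr counts was 5.68 ± 0.43 in the deletion and 3.14 ± 0.30 in WT (SD, n = 3 each, exact two-sided permutation p = 0.1, 0.167 adjusted over 45 member pairs). With 3 libraries against 3, an exact permutation test cannot give a p below 0.1.

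Vcam1, an adhesion molecule that binds integrin α4β1 (chromosome 3, 116109949 to 116129688), had the highest mean CPM of the members in the deletion, where it overlapped with Gramd1b. It had 551, 547 and 565 CPM in the deletion libraries and 71.1, 97.7 and 84.0 CPM in the WT libraries. The deletion libraries hardly varied, and the log2 fold change was 2.71 with an SE of 0.11 (edgeR adjusted p = 2.13e-12). VCAM1 is also made by activated endothelium and by some macrophages. The endothelial markers (15 genes) summed to 166 to 190 CPM in deletion testes, against 83.0 to 84.3 CPM in WT, and the macrophage markers (15 genes) to 591 to 697 CPM in the deletion, against 120 to 130 CPM in WT. No marker of either list was at 0 in all libraries, and their part in the Vcam1 counts was not tested.

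Of the lipid and cofactor enzymes, Hao2 and Vnn1 were low in WT and several-fold higher in the deletion. Hao2, a peroxisomal 2-hydroxy acid oxidase (chromosome 3, 98874521 to 98893239), had 24.2, 23.6 and 21.3 CPM in the deletion libraries and 3.27, 1.40 and 5.64 CPM in the WT libraries. Vnn1, a pantetheinase that releases cysteamine (chromosome 10, 23894688 to 23905343), had 6.91, 6.96 and 5.91 CPM in the deletion libraries and 1.09, 0.233 and 0.564 CPM in the WT libraries. The WT values of Vnn1 rested on 7, 2 and 4 counts and those of Hao2 on 21, 12 and 40 counts, so the WT libraries spread widely while the deletion libraries agree closely. The log2 fold changes were 2.78 with an SE of 0.31 for Hao2 (edgeR adjusted p = 6.56e-07) and 3.43 with an SE of 0.46 for Vnn1 (edgeR adjusted p = 5.09e-06). Without WT replicate 1, which held 7 of the WT counts of Vnn1, its log2 fold change was 4.02.

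Fabp3, which carries fatty acids in the cytosol (chromosome 4, 130308595 to 130315463), had 295, 198 and 259 CPM in the deletion libraries and 20.7, 37.4 and 32.6 CPM in the WT libraries. The groups stood far apart although both varied, and the log2 fold change was 3.03 with an SE of 0.18 (edgeR adjusted p = 2.77e-10). The transcripts of Fabp3 share 37.3% of their 50-base stretches with other genes, mainly the pseudogene Fabp3-ps1 and, on the opposite strand, Zcchc17. Fabp3-ps1 had 55, 47 and 46 counts in the deletion and 4, 9 and 7 counts in WT, which is small beside the 2184 to 3201 and 133 to 322 counts of Fabp3. The level of Fabp3 is uncertain to the extent that the counting split such reads.

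Like Ghr, Gramd1b and Smpdl3a had, with TMM scaling, WT levels close to or above those of the deletion. Gramd1b, which moves cholesterol from the plasma membrane to the endoplasmic reticulum (chromosome 9, 40293233 to 40531383), had 574, 503 and 538 CPM in the deletion libraries and 379, 418 and 417 CPM in the WT libraries. It rose by 0.41 on the log2 scale, with an SE of 0.09 (edgeR adjusted p = 0.00045). An antisense gene, 1700110K17Rik, overlaps 1.1% of its exon bases and had 2, 0 and 0 counts in the deletion and 146, 213 and 183 counts in WT. Smpdl3a, a secreted enzyme related to acid sphingomyelinase (chromosome 10, 57794335 to 57811830), had 10.5, 11.8 and 8.77 CPM in the deletion libraries and 14.9, 16.5 and 18.3 CPM in the WT libraries. It fell by 0.68 on the log2 scale, with an SE of 0.19 (edgeR adjusted p = 0.00447), but with upper-quartile scaling or no scaling factor its log2 fold change was -0.13 or -0.04 and it was not called. Testis holds many germ cells, and the markers of spermatocytes and spermatids fell at the same time: the 12 spermatocyte markers summed to 318 to 390 CPM in the deletion, against 7020 to 7360 CPM in WT, and the 12 spermatid markers to 10.8 to 71.7 CPM in the deletion, against 22100 to 23800 CPM in WT. Which cells gave the WT counts of Gramd1b, Smpdl3a and Ghr was not tested.

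The direction of several members rested on what the libraries were scaled to. When every library was given the same summed level of the 6 steroid synthesis genes, which include no member, the comparison asked whether a member changed relative to the steroid pathway of the same testis. The median log2 fold change over all genes was then -3.34, and 0.434% of the tested genes were higher and 90.2% lower. On this scale 1 member was higher, 4 were lower and 5 were not called. Lhcgr was the member that was higher, at 0.62 with an SE of 0.23 (edgeR adjusted p = 0.0168). That call ended without deletion replicate 1, at 0.55 (edgeR adjusted p = 0.0571), and held with any single steroid gene left aside, at 0.57 to 0.67. Vcam1 was lower, at -0.45 with an SE of 0.14 (edgeR adjusted p = 0.0067), a call that ended without WT replicate 2, at -0.26 (edgeR adjusted p = 0.0633). The steroid genes themselves also spread on this scale. Hsd3b1 was called higher, at 0.32 (edgeR adjusted p = 0.036), and Cyp11a1, at -0.28, was not called (edgeR adjusted p = 0.126).

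Ghr, Gramd1b and Smpdl3a were lower by far more than Vcam1, at log2 fold changes of -2.48, -2.74 and -3.83 with SEs of 0.31, 0.14 and 0.21 (edgeR adjusted p = 2.52e-07, 2.79e-13 and 7.34e-13). Thus Ghr and Gramd1b, higher with TMM, were lower relative to the steroid genes. So were most genes, since 90.2% of all tested genes were lower on this scale, with a median of -3.34. Ghr and Gramd1b fell less than that median, and Smpdl3a somewhat more. Prlr was not called, at 0.02 with an SE of 0.12 (edgeR adjusted p = 0.851). Insl3, Hao2, Vnn1 and Fabp3 were at -0.34, -0.36, 0.31 and -0.12 with SEs of 0.32, 0.33, 0.55 and 0.20 and were not called. Without WT replicate 2, Hao2 was called lower, at -0.73 (edgeR adjusted p = 0.0308). At an equal level of a list of 20 Sertoli markers, 5.3% of the tested genes were higher, 75.1% were lower, and the median over all genes was -2.25. On that scale Ghr, Gramd1b and Smpdl3a were lower, at -1.39, -1.65 and -2.73 (edgeR adjusted p = 0.000382, 6.02e-10 and 2.80e-09). The other members were at 0.66 to 1.71 on the Sertoli scale, and of these only Hao2, at 0.71, was not called (edgeR adjusted p = 0.0723).

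**Figure D2:**
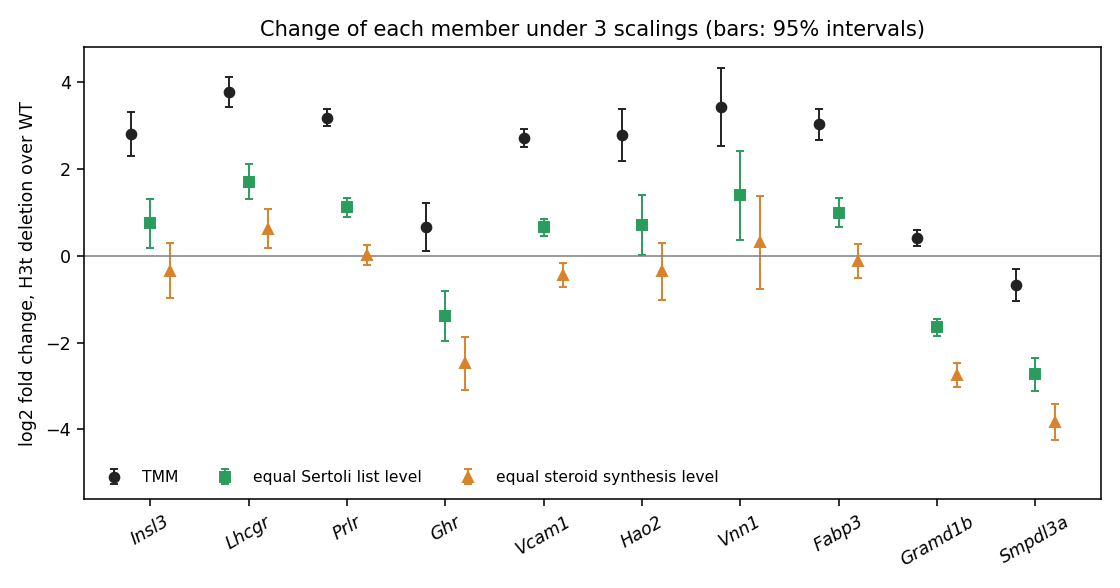
Log2 fold change of each member, H3t deletion over WT, under TMM scaling (circles), at an equal level of 20 Sertoli markers (squares) and at an equal level of 6 steroid synthesis genes (triangles). Bars are 95% intervals taken as 1.96 SE to each side, an approximation that is narrower than the edgeR test allows. Relative to the steroid genes Lhcgr lies above 0, at 0.62, while Ghr, Gramd1b and Smpdl3a lie at -2.48, -2.74 and -3.83. The median over all tested genes on that scale was -3.34.

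Ratios were also taken within each library, which needs no scaling factor. Lhcgr had 14.7, 12 and 13.8 counts per 1000 counts of the 6 steroid synthesis genes in the deletion libraries and 10, 8.21 and 8.27 in the WT libraries. All deletion values were above all WT values, and the log2 ratio differed by 0.59. Prlr had 114, 121 and 124 per 1000 in the deletion and 113, 120 and 119 per 1000 in WT, so the groups overlapped and differed by 0.02. Of the 10 members, 1 lay above WT without overlap, where 0.464% of all tested genes did, and 5 lay below, where 89.9% of all tested genes did. The number above was 2 without WT replicate 1, when Vnn1 no longer overlapped.

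Gramd1b fell to 161, 135 and 142 per 1000 in the deletion, against 903, 1090 and 942 per 1000 in WT, and Smpdl3a was at 2.95, 3.19 and 2.31 per 1000 in the deletion and 35.6, 43.2 and 41.4 per 1000 in WT. Ghr was at 3.06, 1.78 and 2.31 per 1000 in the deletion and 14.8, 14.6 and 10.5 per 1000 in WT. Vcam1 was at 155, 147 and 149 per 1000 in the deletion and 169, 255 and 190 per 1000 in WT. The remaining member below WT was Insl3, where the separation depended on the 0.5 added to each count: the highest deletion library was at 4.57 and the lowest WT library at 4.56 per 1000. For these 5 members and for Lhcgr the exact permutation test (two-sided) gave p = 0.1, which is its limit here, or 0.167 after adjustment for 10 members. Against the steroid genes taken singly, Lhcgr lay above WT without overlap for 5 of the 6, with differences of 0.37 to 0.87. It overlapped for Hsd3b1, at 0.26. Ghr, Gramd1b and Smpdl3a lay below WT for all 6. Insl3 lay below WT for 3 and overlapped for 3, and Vcam1 lay below for 2 and overlapped for 4. Prlr lay above WT for 1 and overlapped for 5, and Hao2, Vnn1 and Fabp3 overlapped for all 6. Relative to the 6 steroid genes summed, 89.9% of all tested genes lay below WT without overlap and 0.464% above.

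**Figure D3:**
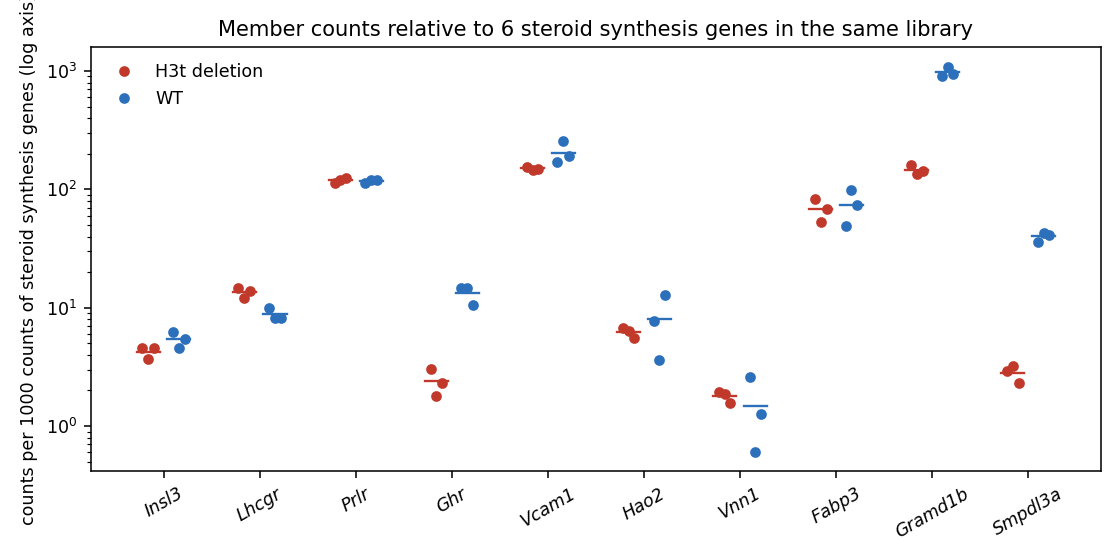
Counts of each member per 1000 counts of Star, Cyp11a1, Hsd3b1, Hsd3b6, Cyp17a1 and Hsd17b3 in the same library, on a log axis, with a point per library and a bar at the group mean. Prlr lies at 114 to 124 in the deletion and 113 to 120 in WT, while Gramd1b and Smpdl3a separate the groups widely.

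The counts of the hormone and of the LH receptor changed by different amounts. The log2 ratio of Insl3 to Lhcgr counts was -1.66 ± 0.06 in the deletion and -0.69 ± 0.12 in WT (SD, n = 3 each), a difference of -0.97 without overlap. The ratio of Lhcgr to Prlr was -3.15 ± 0.19 in the deletion and -3.71 ± 0.21 in WT (SD, n = 3 each), a difference of 0.57. In both cases the exact two-sided permutation p was 0.1, or 0.167 adjusted over the 45 pairs of members. Of these 45 pairs, 27 were apart between the groups and 18 overlapped, so lack of overlap is not particular to these 2 pairs. The Insl3 counts are uncertain, because 64.8% of the Insl3 exon bases are also exon of Jak3.

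Per length of exon, the order of the members differed between the groups. In the deletion Fabp3 stood highest, at 304 ± 60.2 CPM per kb, followed by Vcam1 at 62.5 ± 0.943 and Gramd1b at 53.4 ± 3.64 (SD, n = 3 each). Prlr at 28.7 ± 1.99 and Insl3 at 25.2 ± 3.01 overlapped, and Hao2, Lhcgr, Smpdl3a, Vnn1 and Ghr followed at 11.2, 6.51, 5.02, 2.73 and 0.966 CPM per kb, each apart from its neighbour. In WT Gramd1b stood highest, at 40.2 ± 2.22 CPM per kb, and overlapped with Fabp3 at 36.8 ± 10.5 (SD, n = 3 each). Vcam1 at 9.50 and Smpdl3a at 8.04 overlapped, and so did Insl3 at 3.63 and Prlr at 3.18. Below them stood Hao2 at 1.68, and then Ghr, Lhcgr and Vnn1 at 0.606, 0.480 and 0.260 CPM per kb, each overlapping with the next, and Hao2 overlapping with Ghr. The whole Insl3 count, divided by the 219 exon bases not shared with Jak3, gave 71.7 CPM per kb in the deletion and 10.3 CPM per kb in WT. These values hold only if no counted read came from the shared bases, and they would move Insl3 up the order in both groups.

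**Figure D4:**
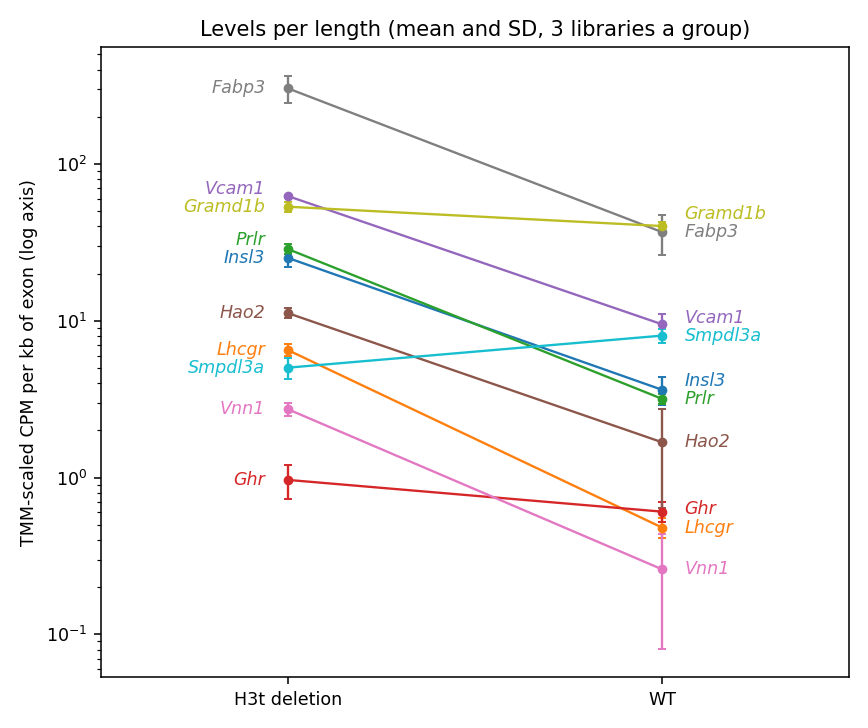
TMM-scaled CPM per kb of exon for each member in the H3t deletion and in WT, on a log axis, with points at the mean and bars of 1 SD over 3 libraries a group. Lhcgr takes the seventh place in the deletion and the ninth in WT, and Smpdl3a the eighth in the deletion and the fourth in WT.

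Relatives of the members moved in both directions with TMM scaling. Insl6, a relaxin-family peptide made by male germ cells, had 4.14, 1.45 and 1.62 CPM in deletion testes, against 82.2, 91.0 and 96.0 CPM in WT, a log2 fold change of -5.21 (edgeR adjusted p = 1.07e-11) where Insl3 rose. Rxfp2, the receptor of INSL3, had 0, 2 and 0 counts in the deletion and 58, 79 and 48 counts in WT, and it was called lower (edgeR adjusted p = 7.34e-08). The ratio of its pooled counts, deletion over WT, was 0.00738, with an exact 95% counting interval of 0.000887 to 0.0270. The other 6 genes of the relaxin list, Rln1, Rln3, Insl5, Rxfp1, Rxfp3 and Rxfp4, had too few counts to be tested.

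Among fatty acid binding proteins, Fabp5 rose along with Fabp3, by 2.74 (edgeR adjusted p = 3.48e-07). Fabp9, the form of the sperm acrosome, had 1.38, 0.362 and 0.0953 CPM in deletion testes, against 302, 308 and 291 CPM in WT, and Fabp12 had 1.84, 2.35 and 0.286 CPM in deletion testes, against 71.6, 75.5 and 77.7 CPM in WT. Both fell, with log2 fold changes of -8.90 and -5.62 (edgeR adjusted p = 1.96e-14 and 3.26e-11). Crabp1, a carrier of retinoic acid, rose by 1.25. Fabp7 had too few counts to be tested. Fabp4 did not pass the filter, which asks for 3 libraries above the minimum, and it had 101, 4 and 98 counts in deletion replicates 1, 2 and 3 and 4, 2 and 0 counts in WT.

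The GRAMD1 sterol carriers split 3 ways. Gramd1a rose by 1.96 (edgeR adjusted p = 3.64e-09) and Gramd1b by 0.41, while Gramd1c had 4.14, 1.81 and 3.05 CPM in deletion testes, against 159, 137 and 162 CPM in WT and fell by 5.67 (edgeR adjusted p = 1.46e-13). Of the 13 other genes of sterol transfer, Gramd1a and Gramd1c included, 10 rose and 3 fell, and the median log2 fold change was 1.12. Scarb1, the high-density lipoprotein receptor, and Npc2, of lysosomal cholesterol export, rose by 1.12 and 1.46, and the oxysterol-binding protein Osbp fell by 0.80. Gramd2 fell by 1.43.

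Smpdl3b, the closest relative of Smpdl3a, moved the other way. It had 10.8, 7.14 and 11.8 CPM in deletion testes, against 1.09, 1.05 and 0.705 CPM in WT, a log2 fold change of 3.37 (edgeR adjusted p = 4.86e-07). Of 14 sphingomyelin and ceramide genes 6 rose, 5 fell and 3 were not called, with a median of 0.44. Acid sphingomyelinase Smpd1 and acid ceramidase Asah1 rose by 2.19 and 2.62, and so did Psap, the precursor of the saposins, by 2.27, Asah2 by 2.73 and Cerk by 0.59. The neutral sphingomyelinases Smpd3, Smpd4 and Smpd5 were at -5.01, -2.21 and -7.08, and the sphingomyelin synthases Sgms1 and Sgms2 at -2.80 and -2.51, all called lower.

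**Figure D5:**
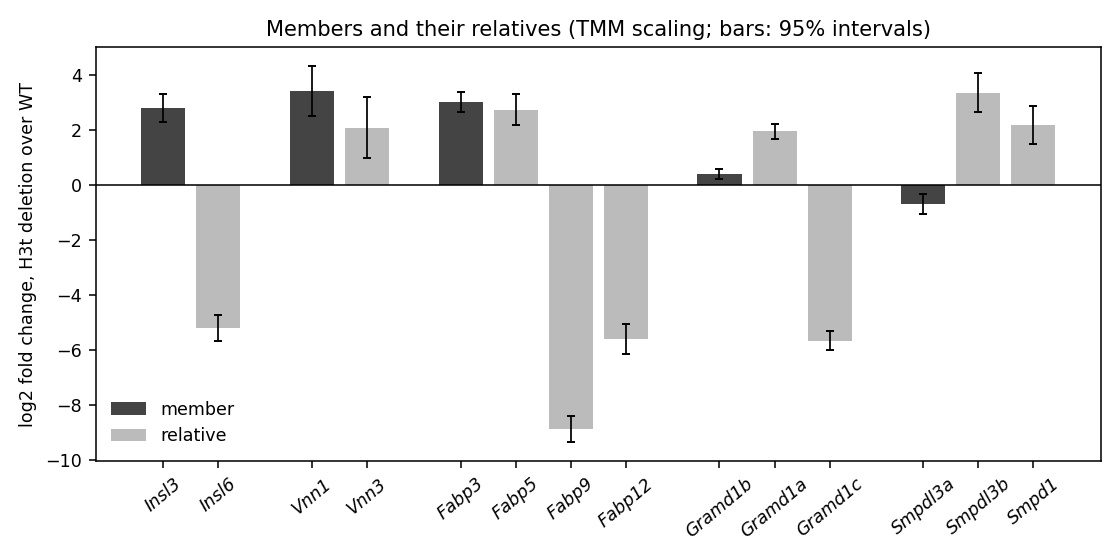
Log2 fold change with TMM scaling, H3t deletion over WT, of 5 members (dark) and their relatives (light). Bars are approximate 95% intervals, taken as 1.96 SE to each side. Insl6, Fabp9, Fabp12 and Gramd1c fell where Insl3, Fabp3 and Gramd1b rose, and Smpdl3b rose where Smpdl3a fell.

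Vnn3, another pantetheinase, rose by 2.09 (edgeR adjusted p = 0.0031), on 34, 21 and 21 counts in the deletion and 1, 5 and 6 counts in WT. Of 13 genes of coenzyme A synthesis and pantetheine use, 11 rose, 1 fell and 1 was not called, with a median of 1.98. The pantothenate kinases Pank1 and Pank3 rose by 2.44 and 1.74, Pank2 fell by 1.06, and Coasy, which completes coenzyme A, rose by 0.54. Hao1, the liver-type relative of Hao2, had 0 counts in each deletion library and 3, 5 and 10 counts in WT and was too low to be tested. Of the 14 peroxisomal oxidation genes tested, 12 rose and 0 fell, with a median of 1.46, among them Hsd17b4 and catalase (Cat) at 1.0 and 2.20. Acox3 rose by 0.25 with overlapping groups.

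Genes around the hormone receptors mostly rose with TMM scaling, where 38.4% of all tested genes were higher and 46.1% lower. Which cells gave the counts of these genes was not tested. Of 17 genes coupled to the LH receptor, 14 rose, 1 fell and 2 were not called, with a median log2 fold change of 1.18. Gnas, the stimulatory G protein that links the receptor to adenylyl cyclase, had 340 ± 10 CPM in deletion testes, against 74.3 ± 11.0 CPM in WT (SD, n = 3 each) and rose by 2.19. Adcy9 rose by 2.48 and the catalytic subunit of protein kinase A, Prkaca, by 0.30, while Cyth2 fell by 0.40, a direction that turned to 0.14 with upper-quartile scaling. Of 17 genes of prolactin and growth hormone signalling, 14 rose, 0 fell and 3 were not called, with a median of 1.97. The receptor kinase Jak2 rose by 2.48, Ptpn11 by 2.01, Stat3 by 1.97 and Stat5b by 2.86. Igf1, the main target of growth hormone in many tissues, rose by 2.63, to 126 ± 20.4 CPM in the deletion, against 20.2 ± 3.19 CPM in WT (SD, n = 3 each).

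The feedback inhibitors of cytokine receptors did not move alike. Socs3 had 49, 61 and 73 counts in the deletion and 1, 1 and 1 counts in WT, a ratio of pooled counts of 41.6 with an exact 95% counting interval of 14.0 to 204 (edgeR adjusted p = 4.02e-07). Cish rose by 1.82 (edgeR adjusted p = 9.82e-05), and Socs2 and Socs1, at -0.16 and -0.32, were not called (edgeR adjusted p = 0.687 and 0.550). Of 11 tested genes of VCAM1 binding and adhesion, 10 rose and 1 fell, with a median of 2.15. The integrin chains Itga4 and Itgb1, which pair as a VCAM1 receptor, rose by 2.99 and 1.96, Ezr by 2.15 and Icam1 by 3.11, and Rdx fell by 0.30, a direction that turned to 0.24 with upper-quartile scaling.

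Regulators of Insl3 and Lhcgr transcription moved in both directions. Of 16 tested genes, 12 rose, 2 fell and 2 were not called, with a median of 1.83. Nr5a1, the nuclear receptor that drives Leydig cell genes, had 256, 229 and 227 CPM in deletion testes, against 32.7, 34.2 and 36.2 CPM in WT and rose by 2.79 (edgeR adjusted p = 4.84e-13). Gata4 rose by 2.50, Nr2f2 by 2.53, Mef2a by 1.44 and Nr0b1, a repressor of NR5A1, by 2.05. The genes that fell were Nr4a1 and Nr4a3, early response nuclear receptors that LH induces in Leydig cells. Nr4a1 had 4.05, 4.70 and 8.39 CPM in deletion testes, against 26.9, 24.1 and 18.5 CPM in WT, a log2 fold change of -2.02 (edgeR adjusted p = 2.79e-06), and Nr4a3 was at -1.18 (edgeR adjusted p = 0.00361).

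Directions of these lists, too, rested on the scaling. With TMM 38.4% of all tested genes were higher and 46.1% lower. These shares are the background for the counts called in every list, those of the cell markers below included. At an equal steroid synthesis level the median log2 fold change was -1.97 for the LH receptor list, -1.18 for prolactin and growth hormone signalling, -1.0 for VCAM1 adhesion, -1.70 for peroxisomal oxidation, -1.15 for coenzyme A, -2.04 for sterol transfer, -2.72 for sphingomyelin genes and -1.33 for the regulators, all below 0 where TMM gave medians above 0. On that scale Gramd1a was lower, at -1.19, and Fabp5 and Smpdl3b, at -0.41 and 0.22, were not called (edgeR adjusted p = 0.268 and 0.631). With upper-quartile scaling, Rdx was called higher and Cyth2 was not called, and Gramd2 and Nr4a3, at -0.88 and -0.64, were no longer called. Osbp was still lower there, at -0.25, and was not called with no scaling factor, at -0.16. With median-of-ratios scaling Acox3 and Prkaca, at 0.08 and 0.12, and Jak3, at 0.48, were not called.

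Markers of other testis cells moved with the members. With TMM all 20 Sertoli markers rose, with a median log2 fold change of 2.38, as did all 15 macrophage markers, with a median of 2.93. Of 14 endothelial markers 10 rose and 0 fell (median 1.40), of 11 peritubular myoid markers 9 rose and 1 fell (1.51), and of 12 interstitial mesenchyme markers 9 rose and 1 fell (1.79). Of 11 spermatogonial markers 8 rose and 1 fell (1.58), and all 12 spermatocyte and all 12 spermatid markers fell, with medians of -3.91 and -9.54. The part of these cells in the values of the members was not tested.

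Genes whose profile over the 6 libraries was most like that of a member were found by the root mean square difference of centred log2 CPM. The search covered 13625 protein-coding genes whose mean CPM was 1 or more, leaving out genes with clone names as symbols. For Lhcgr they were Ddr1, Scd1, Oxtr, Lrrc2 and the testosterone-forming enzyme Hsd17b3, at differences of 0.087 to 0.158. For Insl3 they were Plxdc2, Itga9, Setd7, Arhgap21 and Sc5d, at 0.043 to 0.103. For Smpdl3a they were Scyl2, Arhgap11a, Higd1a, Tma7 and Extl2, at 0.069 to 0.080, with log2 fold changes of -0.58 to -0.77. This measure includes the difference between the groups itself.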

How the data were processed

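For 6 testis libraries the authors deposited gene-level read counts, not normalized. Libraries were made with the SMART-Seq Stranded kit, per the labels' protocols. Reads were trimmed, aligned to GRCm38 and counted with Trim Galore, HISAT2 and featureCounts, per the submitters' processing notes. Tool versions and whether strand was used in counting are not stated in these sources, so reads of overlapping or antisense genes cannot be assigned with certainty. All 54100 genes were found in GENCODE M21, which gave coordinates, exon lengths and shared 50-base stretches. Promoter windows are from RefSeq (GRCm38.p6).

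Counts were filtered with filterByExpr (17038 genes), scaled by TMM and tested with edgeR 4.0.16 in R 4.3.3 (quasi-likelihood test, Benjamini-Hochberg over all genes, false discovery rate 0.05). SEs are the log2 fold change divided by the square root of the test's F statistic. The labels give each library a mouse number but do not otherwise say that samples are separate animals, so the p-values speak only to the variation among these 6 libraries, some of which may be technical. No libraries agree within sampling noise (chi-square per degree of freedom 4.48 to 6.88 within groups). Precision at these depths is set by counting where counts are few, and 1 count was worth 0.0904 to 0.156 CPM. Counting intervals cover counting error only. In ratios 0.5 was added to each member's count, and in likeness to each CPM.

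The members and gene lists were chosen with earlier results of these data known. Named were all members, the 6 steroid synthesis genes, fixed relatives of the members, and from each other list up to 3 called genes with the highest mean CPM and called genes that moved against the rest. Named after their values were seen were Jak3, Fabp3-ps1, Zcchc17, 1700110K17Rik, Rln1, Rln3, Insl5, Rxfp1, Rxfp3, Rxfp4, Socs1, Socs2, Socs3, Cish, Stat5b, Jak2, Itga4, Icam1, Adcy9, Asah1, Asah2, Crabp1, Cat, Coasy, Npc2, Nr2f2 and Nr0b1. Some genes of these lists are not reported here by name. On simulated counts of 16131 genes, the same steps compared deletion with WT, both drawn from the WT profile. They recovered 23.1% of genes changed 1.5-fold, 72.6% changed 2-fold and 100% changed 4-fold, with 4.96% of calls false. Only 52, 62 and 58 genes were changed at these folds, whereas in the data 38.4% of tested genes were called higher and 46.1% lower. These rates therefore need not hold for the calls given here. Alternatives were other scalings, filters and thresholds, DESeq2 1.42.0, limma voom (limma 3.58.1) and each library left out.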

Additional observations from a re-analysis of the deposited data

How the results depend on the processing

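With all 6 libraries, 9 members rose and 1 fell. Leaving out a library gave 8 to 9 that rose and 1 that fell, with 6356 to 6591 genes higher and 7899 to 8287 lower over the whole table, against 6542 and 7861. The number of members that fell was 0 with upper-quartile scaling, with no scaling factor and in a test against a 1.5-fold change. That test left 7 that rose, without Ghr and Gramd1b (adjusted p = 0.217 and 0.915, edgeR). At an equal steroid synthesis level 1 member rose and 4 fell, with 74 genes higher and 15372 lower, and Insl3, Ghr, Vcam1, Hao2, Fabp3 and Gramd1b turned to -0.34, -2.48, -0.45, -0.36, -0.12 and -2.74. These calls numbered 0 to 1 higher and 4 to 4 lower with a library left out, checks chosen after seeing the data. At an equal Sertoli level 6 members rose and 3 fell, with 903 genes higher and 12804 lower. Ghr and Gramd1b turned to -1.39 and -1.65 there. Within libraries, 1 to 2 members lay above WT and 5 to 6 below it relative to the steroid genes with a library left out, and 6 above and 3 below it relative to the Sertoli list, where Insl3 and Vcam1 were at 0.71 and 0.67. By construction these scalings shift all genes together. Ghr was also not called with median-of-ratios scaling (0.50), DESeq2 (0.50), limma voom (0.64) or at a false discovery rate of 0.01, and the cause was not tested. With upper-quartile scaling or no scaling factor Ghr was called higher, at 1.21 and 1.31 (edgeR adjusted p = 0.000599 and 0.000297). Gramd1b was at 0.95 and 1.05 on these scalings. Depth limits Vnn1, with 13 counts over the WT libraries. No paired analysis was run, because the labels name no pairs and no mouse number is shared between libraries. Some mouse numbers follow each other across the groups, and no label says whether these mark a litter or a batch.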
